A study of Mus musculus with 8 samples.

Results

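The cytosolic ribosomal protein genes are the genes that encode the protein part of the ribosomes of the cytoplasm. They were taken by gene symbol, as names that begin with Rpl or Rps and a number, Rplp and a number, or Rpsa, leaving out the Rps6k kinases. This gave 102 of 14709 genes listed in either table, with 93 of 13056 genes in the table of sorted cells and 102 of 14319 genes in the table of overexpressing cells, and the same 93 genes were listed in both. By name, 76 were main genes (31 of the small 40S subunit and 45 of the large 60S subunit), 9 were paralogues, 16 were numbered copies, and Rps19bp1 matched by name although it encodes a protein that binds Rps19 and is no ribosomal protein. Rpl13 was not analysed here.

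The data are RNA-seq of 8 samples of mouse embryonic stem cells (mESCs) in 4 conditions. All lines were mESCs of C57BL/6(F) x 129/sv(M) background, grown in serum medium with leukemia inhibitory factor on gelatin, and the experiments ask how cells that hold the transcription factor KLF3, or are made to express it, differ from cells without it. In the first experiment, the cells carried a reporter in which the part of KLF3 before its DNA-binding domain was fused to GFP under the CAGGS promoter, with DsRed from the same construct, and were grown from picked, hygromycin-resistant colonies. From these, 500 KLF3-GFP-positive or 500 KLF3-GFP-negative cells per sample were sorted and sequenced with the Smart-seq2 protocol, which amplifies cDNA from few cells. Both sorted conditions carried the reporter, so the comparison is between cells with and without detectable fusion protein. In the second experiment, codon-optimised Klf3 (KLF3-OE) or GFP (GFP-OE) was integrated at the Col1A1 locus of a line with the M2rtTA activator at R26, clones were selected on feeder cells and picked, and expression was induced with doxycycline for 72 hours before poly(A) RNA was sequenced. Each condition had 2 samples, and the tables give 1 averaged value per gene and condition in FPKM, that is, fragments scaled by transcript length and by library size. The spread between samples and the sequencing depth are therefore unknown, no test was possible, and every difference below is a difference between averages without a replicate check. The endogenous Klf3 gene was listed at 107 FPKM without and 122 FPKM with KLF3-GFP in the sort, and at 58.7 FPKM in GFP-OE and 47.8 FPKM in KLF3-OE cells. In the values that follow, the control (KLF3-GFP-negative or GFP-OE) is given first and the KLF3 side (KLF3-GFP-positive or KLF3-OE) after it. A reporter fragment or a codon-optimised transgene need not be counted at this locus, so these values do not check the labels.

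A ribosome is built from ribosomal RNA and one copy of most ribosomal proteins per subunit, the stalk proteins Rplp1 and Rplp2 being present as several copies. The 40S subunit reads the mRNA and the 60S subunit joins the amino acids. Ribosomal protein genes are among the most strongly expressed genes of dividing cells, and their mRNAs start with a run of pyrimidines, the terminal oligopyrimidine (TOP) tract, through which mTOR signalling sets their translation through LARP1 and the eIF4E-binding proteins. Several members have a retrogene or duplicate elsewhere in the genome, and some of these paralogues are used in particular tissues. The many processed pseudogenes of the family share long stretches of sequence with their source genes.

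The start sites carried this sequence feature at a higher share than other genes. Of the 76 main genes, 56 matched the RefSeq promoter table (GRCm38.p6), as did 8 of the 9 paralogues. A C followed by 4 pyrimidines began exactly at a listed start in 13 of these 56 genes (23.2%), against 3.01% of all 27025 genes in the table. Allowing the tract to begin within 4 bases of the start gave 26 of 56 genes (46.4%) and 16.4% of all genes. The windows below run from 15 bases before to 15 bases from the start site on the gene's own strand, with the tract in capitals. They are shown for the main genes with the largest and smallest differences after KLF3 overexpression among those with a tract at the start, for Rpl35, which was higher on the KLF3 side in both experiments, and for Rps27 with its paralogue Rps27rt. They lie at chr7:141447636-141447665 (Rplp2), chr11:114668565-114668594 (Rpl38), chr2:180257364-180257393 (Rps21), chr2:39005117-39005146 (Rpl35), chr17:33955651-33955680 (Rps18), chr14:18270972-18271001 (Rpl15), chr3:90213634-90213663 (Rps27) and chr9:114982725-114982754 (Rps27rt). Rplp2, Rpl38 and Rps21 are on the plus strand and the others on the minus strand.
Rplp2: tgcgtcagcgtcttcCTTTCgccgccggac
Rpl38: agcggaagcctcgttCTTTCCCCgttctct
Rps21: taccgaggacccgccCTCCTgcccaatagt
Rpl35: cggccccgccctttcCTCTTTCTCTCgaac
Rps18: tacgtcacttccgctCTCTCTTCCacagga
Rpl15: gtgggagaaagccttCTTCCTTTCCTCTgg
Rps27: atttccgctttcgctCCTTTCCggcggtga
Rps27rt: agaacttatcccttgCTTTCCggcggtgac
Counted from the listed start onward, the tract was 5 bases long in Rplp2 and 13 bases long in Rpl15. These genes had the largest and the smallest difference of the main genes after KLF3 overexpression. In both windows pyrimidines also lie directly before the listed start, so these lengths depend on where the start is placed. A relation between tract length and difference was not tested. The 26 genes with a tract near the start and the 30 matched genes without it had median differences of 0.83 and 0.84 on the log2(FPKM + 1) scale after overexpression, and of -0.23 and -0.25 in sorted cells. These groups rest on the listed starts, and a gene whose start is listed several bases away would count as without a tract. The part of the tract in these differences was therefore not tested.

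In the same 300 bases (250 before and 50 after the start, both strands), the motif CCGGAAG, the core bound by ETS factors such as GABPA, was present in 24 of the 56 main genes (42.9%) and in 9.93% of all genes. AAGATGG, the core bound by YY1, was present in 9 (16.1%) and 7.28%. The CACCC-box form CCACACCC, a sequence recognised by KLF factors, was present in 2 main genes (3.57%) and 4.09% of all genes. These are matches of letters in a window and do not show binding.

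The same mRNAs were at the top of the scale in every condition. Main ribosomal protein genes made up 10 of the 20 and 50 of the 100 genes with the highest mean FPKM in sorted cells, and 14 of the 20 and 72 of the 100 in overexpressing cells. All members together took 30.6% of the summed FPKM of KLF3-GFP-negative cells and 26.3% of that of KLF3-GFP-positive cells. In the overexpression experiment they took 29.0% in GFP-OE cells and 39.0% in KLF3-OE cells. The share fell by 4.29 percentage points on the KLF3 side of the sort and was higher by 10.04 percentage points after KLF3 overexpression. Since FPKM divides by transcript length, a share of summed FPKM is closer to a share of molecules than of fragments. Weighted by transcript length, the shares were 21.2% and 17.6% in the sort and 15.9% and 24.6% in the overexpression experiment.

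**Figure D1:**
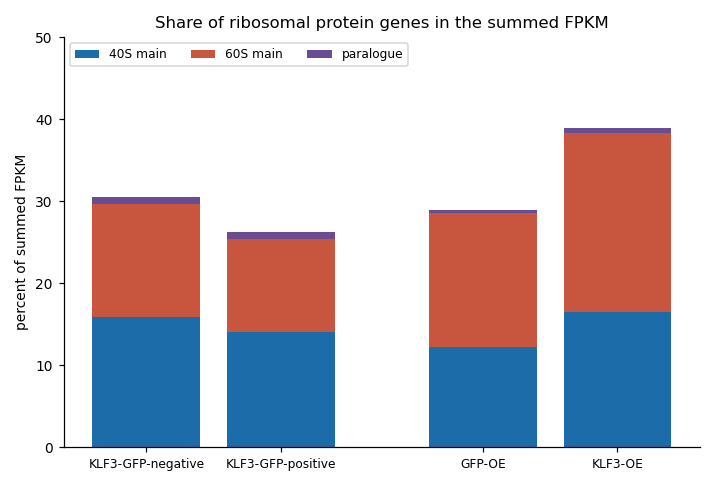
Percent of summed FPKM (vertical axis) taken by 40S main genes, 60S main genes and paralogues in the 4 conditions, each bar an average of 2 samples. The main genes take 29.7% and 25.4% in the KLF3-GFP-negative and KLF3-GFP-positive bars, and 28.6% and 38.4% in the GFP-OE and KLF3-OE bars.

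The summed FPKM of the 76 main genes was 268765 in the control and 241069 on the KLF3 side of the sort, a ratio of 0.897, while the sum over genes that are no members had a ratio of 1.11. After KLF3 overexpression the main genes' sum went from 174949 to 320432, a ratio of 1.83, against 1.17 for all other genes. In a bulk sample, fewer cells with a high level and less RNA per cell cannot be told apart, and this holds for every value below. The share of mitochondrially encoded transcripts moved the other way, from 0.573% to 0.892% over the 7 listed genes in sorted cells and from 3.77% to 2.05% over 13 genes in overexpressing cells. Its part in the shares of the members was not tested beyond leaving these genes out of the sum, which gave 30.1% for GFP-OE cells.

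In sorted cells, most main genes were slightly lower in KLF3-GFP-positive cells, and none passed a 2-fold change. A gene was counted as measured where its columns averaged 1 FPKM or more, which held for 87 of the 93 members and for 9212 genes in all, and a gene was called where its value on the log2(FPKM + 1) scale differed by more than 1. Among the 76 main genes 0 were called in either direction, where 13.8% of all measured genes were called higher and 8.32% lower. The median difference of the main genes was -0.23, with a middle range from -0.33 to -0.07 and extremes of -0.80 and 0.39, against a median of 0.03 and a middle range from -0.43 to 0.56 over all genes. Of the 76 main genes 65 were below 0 and 11 above it, against 48.1% and 51.7% of all genes.

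After KLF3 overexpression, nearly all main genes were higher. Their median difference was 0.84, with a middle range from 0.67 to 1.02 and extremes of -0.09 and 1.86, against -0.18 over all 11179 measured genes. Of the 76 main genes 75 were above 0 and 1 below it, against 40.5% and 59.4% of all genes. A rise past 2-fold was found in 20 of the 76 main genes (26.3%), against 6.60% of all genes. None was lower by more than 2-fold, against 10.1% of all genes. Among the 874 other genes averaging 100 FPKM or more, 19.2% were higher and 2.75% lower by more than 2-fold, and 75.3% were above 0. The number of main genes past 2-fold depended on the scaling. With each column scaled by the median ratio over all genes, 45 main genes passed 2-fold and their median was 1.05, while the calls over all genes went from 738 higher and 1133 lower to 1183 higher and 719 lower. With quantile normalization 1 main gene passed 2-fold and the median was 0.16. With the trend of the difference on expression level removed, 0 passed 2-fold, 37 of 76 were above 0 and the median was -0.0025. Of the 117 genes averaging 1000 FPKM or more, 75 were main ribosomal protein genes, and their part in the last 2 of these settings was not tested.

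The 40S genes with the highest mRNA levels in sorted cells were Rps29, Rps26 and Rps28, which encode small proteins of the subunit's head and mRNA exit region. Rps29 was at 21984.5 and 22957 FPKM. Rps26 was at 13533 and 13653 FPKM, and Rps28 at 12782 and 13654 FPKM. These genes hardly differed between the conditions, with differences of 0.06, 0.01 and 0.10, beside a median of -0.23 for the main genes. The largest positive difference of the family was that of Rps12, a protein of the subunit's beak, at 1523 and 2003 FPKM (0.39). At the other end, Rps14, which lies on the platform of the subunit near the mRNA exit, was at 5444 and 3128 FPKM (-0.80), the largest negative difference of a main gene. Rps20 was at 2974 and 2121 FPKM (-0.49), and Rps4x, the X-linked member, at 2289 and 1694 FPKM (-0.43).

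Among 60S genes of sorted cells, the highest was Rpl41, which encodes the smallest ribosomal protein, at 11375 and 9683 FPKM (-0.23). Rpl35, which sits at the exit of the peptide tunnel, was at 6335 and 7641 FPKM, the largest positive difference of a 60S main gene (0.27). Rpl34 was at 6279 and 5431 FPKM (-0.21), while Rplp1 (2868 and 3224 FPKM) and Rpl9 (3460 and 3884 FPKM) were both higher by 0.17. The largest negative difference of a 60S main gene was that of Rpl21, at 2424 and 1527 FPKM (-0.67). Rpl5, which carries the smallest ribosomal RNA of the large subunit into it and, when free, binds MDM2, was at 479 and 304 FPKM (-0.66). Rpl3, a protein near the peptidyl transferase centre, was at 1946 and 1323 FPKM (-0.56).

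The subunits did not stand apart by much. In sorted cells the median difference was -0.15 for 40S genes, of which 24 of 31 were below 0, and -0.27 for 60S genes, of which 41 of 45 were below 0. These medians differed by 0.12, and by 0.06 with quantile normalization. The 40S genes made up 53.6% of the main genes' summed FPKM in the control and 55.1% on the KLF3 side of the sort. After overexpression the medians were 0.86 for 40S and 0.83 for 60S genes, with 8 of 31 and 12 of 45 past 2-fold, and the 40S percentage was 42.9% in GFP-OE and 43.0% in KLF3-OE cells. No test between subunits was possible without replicate values.

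In overexpressing cells, the 40S genes with the highest levels were Rps24 (5761 FPKM in GFP-OE and 12087 FPKM in KLF3-OE cells), Rps12 (5307 and 9618 FPKM) and Rps26 (4746 and 9424 FPKM). Their differences were 1.07, 0.86 and 0.99. The largest differences among 40S genes were those of Rps19, the protein most often mutated in Diamond-Blackfan anaemia, at 1365 and 3481 FPKM (1.35), Rps21 at 1541 and 3919 FPKM (1.35) and Rps20 at 1197 and 2946 FPKM (1.30). Rps20 thus had the second most negative difference among 40S genes in the sort and the third most positive one after overexpression. Rps14, which had the most negative difference of a main gene in the sort, was at 2780 and 5840 FPKM (1.07). The smallest differences were in Rps18, at 3576 and 4619 FPKM (0.37), Rps10, at 2341 and 3288 FPKM (0.49), and Rps6, the substrate of the ribosomal S6 kinases, at 3013 and 4386 FPKM (0.54). The other 40S genes past 2-fold were Rps15a, Rps28 and Rps29, at differences of 1.16, 1.09 and 1.05.

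Among 60S genes of overexpressing cells, Rpl41 was highest, at 5107 FPKM in GFP-OE and 12583 FPKM in KLF3-OE cells (1.30), followed by Rpl26 (4993 and 8205 FPKM, 0.72) and Rpl13a (4227 and 7716 FPKM, 0.87). The largest difference of all members was that of Rplp2, at 2323 and 8420 FPKM (1.86). Rpl38, known for its part in the translation of Hox mRNAs, was at 1841 and 5021 FPKM (1.45), and Rpl37a at 1299 and 3328 FPKM (1.36). The other 60S main genes past 2-fold were Rpl36 (1.23), Rpl36a (1.18), Rpl22 (1.18), Rpl35 (1.15), Rpl21 (1.09), Rpl24 (1.05), Rplp1 (1.04) and Rpl18 (1.01). Rpl15 was the only main gene below 0, at 759 and 711 FPKM (-0.09). Rpl4, which lines the peptide tunnel, was at 3143 and 3650 FPKM (0.22).

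The stalk, which recruits the elongation factors, did not move as a unit. In overexpressing cells Rplp2 and Rplp1, which form the flexible dimers, were called higher, the latter at 2981 and 6138 FPKM, while Rplp0, the base that holds them, was at 1591 and 1888 FPKM (0.25). The 3 genes took 1.13% of the summed FPKM in GFP-OE and 1.97% in KLF3-OE cells. In sorted cells Rplp2 was at 3763 and 3093 FPKM (-0.28), Rplp0 at 2460 and 2037 FPKM (-0.27) and Rplp1 was higher on the KLF3 side, and the summed share was 1.01% and 0.881%.

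**Figure D2:**
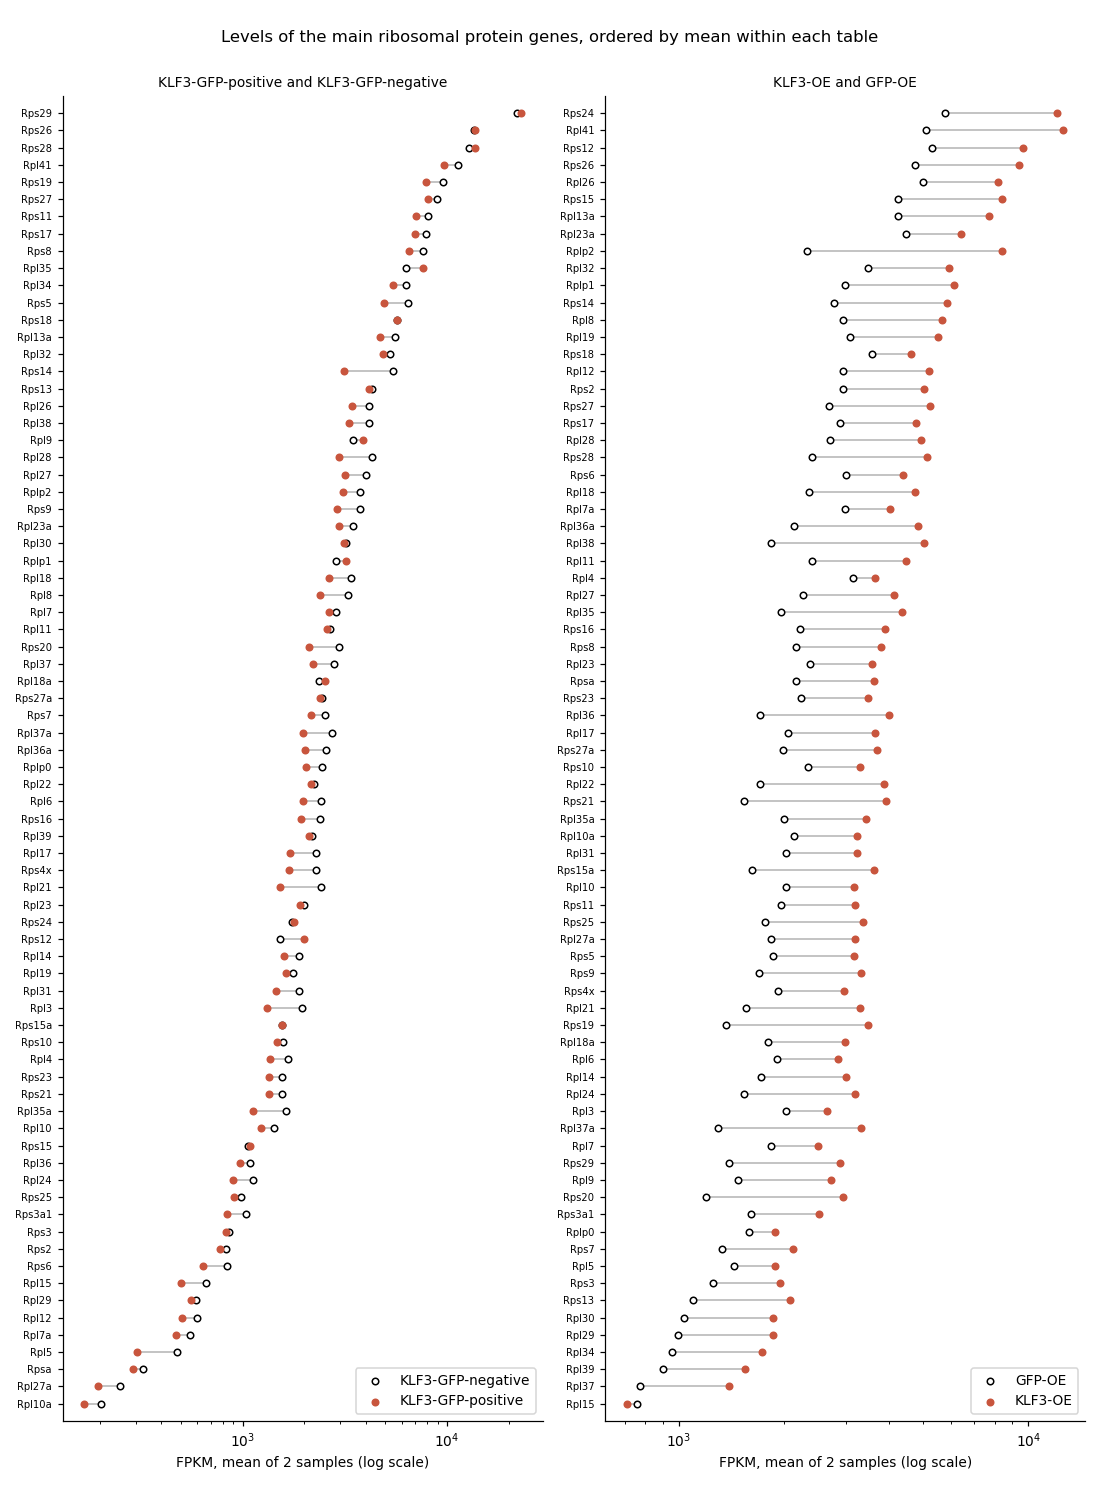
FPKM (horizontal log scale) of each of the 76 main ribosomal protein genes in control (open points) and KLF3-side (filled points) averages of 2 samples, for sorted cells (left) and overexpressing cells (right), ordered by mean within each table. Filled points lie close to and mostly left of the open ones on the left, and right of them for every gene but Rpl15 on the right.

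Gene by gene, the experiments differed in direction more than they shared an order. Of the 76 main genes, 64 were below 0 in sorted cells and above 0 after overexpression, 11 were above 0 in both, among them Rps12, Rps28, Rps29, Rpl35, Rplp1 and Rpl9, and 1, Rpl15, was below 0 in both. Across the 76 genes, the differences of both experiments had a Pearson r of 0.09 and a Spearman rho of 0.12, and the mean levels an r of 0.24 and a rho of 0.22. Within an experiment, the levels of the conditions had an r of 0.99 in sorted and 0.90 in overexpressing cells. These values are across genes, which are not independent replicates, and the experiments used different library protocols. Rps29 shows the gap in levels, as the highest member in sorted cells at 21984.5 FPKM but at 1389 FPKM in GFP-OE cells.

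The paralogues varied more than the main genes in sorted cells. All 9 were measured in both tables, and 3 were lower by more than 2-fold in KLF3-GFP-positive cells, against 8.32% of all genes. Rpl22l1, whose level Rpl22 is known to repress, was at 2119 and 747 FPKM (-1.50), while Rpl22 itself was at 2235 and 2164 FPKM (-0.05). Of the FPKM of this pair, Rpl22l1 took 48.7% and 25.7%. Rpl10l, a retrogene of the X-linked Rpl10 used in the testis, was at 19.3 and 4.86 FPKM (-1.79), beside 1421 and 1237 FPKM for Rpl10. Rpl39l, another retrogene known from the male germ line, was at 35.8 and 17.0 FPKM (-1.03), beside 2188 and 2106 FPKM for Rpl39. Rpl3l, known from heart and skeletal muscle, was low, at 3.12 and 1.15 FPKM (-0.94 with a pseudocount of 1 and -1.37 with 0.1, where it passes 2-fold).

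Rps27l went the other way in the sort. This gene, a known target of p53, was at 2740 and 4245 FPKM (0.63), while Rps27 was at 8950 and 8057 FPKM (-0.15), so that Rps27l took 23.4% and 34.5% of the pair. Rpl36al, a retrogene of the X-linked Rpl36a, was at 2360 and 2600 FPKM (0.14) beside 2551 and 2032 FPKM (-0.33), or 48.1% and 56.1% of the pair. Rps4l (268 and 224 FPKM, -0.26), Rps27rt (107 and 88.8 FPKM, -0.26) and Rpl7l1 (82.3 and 58.4 FPKM, -0.49) were lower with their main genes.

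In overexpressing cells, 3 paralogues were higher by more than 2-fold, against 6.60% of all genes. Rpl36al was at 568 FPKM in GFP-OE and 1484 FPKM in KLF3-OE cells (1.38), beside 2133 and 4822 FPKM for Rpl36a. Rps27l was at 523 and 1213 FPKM (1.21), beside 2690 and 5236 FPKM for Rps27 (0.96). Rps4l was at 488 and 977 FPKM (1.0008, just past the limit), and Rpl10l, at 21.5 and 42.9 FPKM (0.96), was just inside it. Rps4l is typed as a transcribed processed pseudogene in GENCODE M21. Its sequence was not compared with that of Rps4x, and its level is uncertain, as for the numbered copies below. Rpl22l1 was at 265 and 423 FPKM (0.67), less than Rpl22 at 1709 and 3861 FPKM (1.18), so its percentage of the pair was 13.4% and 9.87%. Its part of the pair was therefore lower on the KLF3 side in both experiments, and that of Rps27l and Rpl36al higher. The latter was 16.3% and 18.8% for Rps27l and 21.02% and 23.5% for Rpl36al after overexpression. A shared direction was not particular to these pairs. The part of Rpl39l, Rpl3l, Rpl7l1 and Rps27rt was also lower in both experiments, and that of Rps4l higher. Only Rpl10l differed, at 1.34% and 0.391% in the sort and 1.05% and 1.33% after overexpression. Rpl39l was the only paralogue below 0, at 18.2 and 15.4 FPKM (-0.22), beside 905 and 1550 FPKM for Rpl39 (0.78). Rpl3l and Rpl7l1 were at differences of 0.20 and 0.10. The opposite sign of Rpl39l was near 0 with median-ratio scaling (-0.03), and Rpl7l1 was at -0.13 with quantile normalization.

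**Figure D3:**
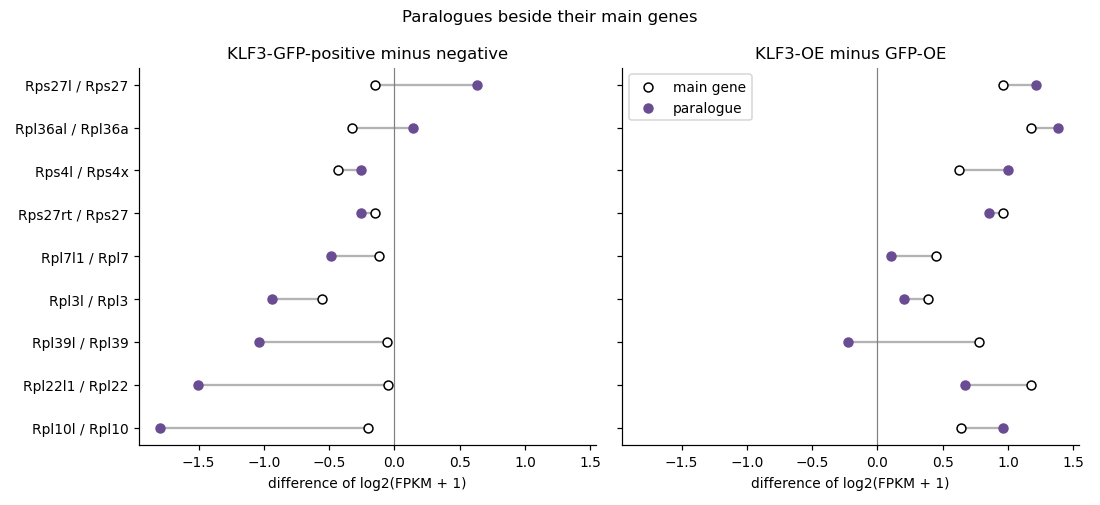
Difference of log2(FPKM + 1), KLF3 side minus control (horizontal axis), of 9 paralogues (filled) and their main genes (open), 1 pair a line, in sorted cells (left) and overexpressing cells (right). Rpl22l1, Rpl39l and Rpl10l lie at -1.50, -1.03 and -1.79 on the left, far from their main genes, and Rpl39l is the only filled point below 0 on the right.

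How far such pairs can be told apart depends on their sequences. The first 60 bases of the coding sequence (GENCODE M21, mm10) are shown for Rps27 (chromosome 3, exonic), Rps27l (chromosome 9) and Rps27rt (chromosome 9), and the aligned 60 bases of Rpl22 (chromosome 4) and Rpl22l1 (chromosome 3), with capitals at bases that differ from the main gene. These pairs are shown because their shares moved or, for Rps27rt, because no base differs.
Rps27: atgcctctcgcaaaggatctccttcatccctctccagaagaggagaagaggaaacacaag
Rps27l: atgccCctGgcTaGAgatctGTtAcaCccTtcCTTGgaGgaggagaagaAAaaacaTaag
Rps27rt: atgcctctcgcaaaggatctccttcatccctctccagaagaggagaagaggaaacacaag
Rpl22: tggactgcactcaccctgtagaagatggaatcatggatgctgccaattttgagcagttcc
Rpl22l1: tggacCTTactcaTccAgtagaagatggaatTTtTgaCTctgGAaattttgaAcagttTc
In these stretches 18 bases differed in Rps27l and 14 in Rpl22l1. Over the whole alignment, identity was 76.2% for Rps27l, with no identical run longer than 11 bases, and 74.6% over 299 bases for Rpl22l1, with a longest run of 26 bases. It was 84.7% for Rpl10l, 87.7% for Rpl36al, 85.5% for Rpl39l and 74.5% for Rpl3l. The coding sequence of Rps27rt was identical to that of Rps27 over all 252 bases, so reads cannot be assigned to either within it, and the level of Rps27rt is uncertain. The files do not give how reads that match several genes were shared out.

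The levels of the numbered copies, most of them processed pseudogenes, are also uncertain, since such copies can share long stretches with their source genes. Their sequences were not compared with those of the source genes here. In sorted cells 7 were listed and 1 was measured, Rps26-ps1 at 24.6 and 22.2 FPKM. In overexpressing cells 16 were listed and 15 measured, with a median difference of 0.65 and 14 of 15 above 0. The copies past 2-fold were Rpl36-ps3 (33.2 and 96.7 FPKM, 1.51) and Rpl13-ps3 (15.6 and 37.0 FPKM, 1.19). The highest was Rpl23a-ps3, at 126 and 198 FPKM, and all copies together took 0.0642% and 0.0830% of the summed FPKM. Rps19bp1, the member by name alone, was at 192 and 175 FPKM in sorted cells and at 42.3 and 98.9 FPKM in overexpressing cells (1.21).

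Some ribosomal proteins have names outside the rule. In sorted cells Fau, the precursor of Rps30, was at 2889 and 2589 FPKM (-0.16) and Gnb2l1, the scaffold RACK1, at 2566 and 2279 FPKM (-0.17). After overexpression Fau was at 1342 and 3083 FPKM (1.20) and Gnb2l1 at 1548 and 2149 FPKM (0.47).

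The genes of factors that build ribosomes did not follow the ribosomal protein genes after overexpression to the same extent. Of 124 measured ribosome biogenesis and RNA polymerase I genes in sorted cells, 0 were called higher and 3 lower (2.42%), with a median of -0.34, against 13.8% and 8.32% of all genes. The called genes were Dkc1, the pseudouridine synthase of small nucleolar and telomerase RNPs (133 and 51.1 FPKM), Wdr74 (125 and 52.7 FPKM) and Eftud1, a GTPase that releases eIF6 from the 60S subunit (5.78 and 2.28 FPKM). After overexpression 10 of 125 (8.00%) were called higher and 1 (0.800%) lower, with a median of 0.16, against 6.60% and 10.1% of all genes, so the share called higher was near that of all genes. Wdr75 was at 64.1 and 165 FPKM and Gar1, a partner of Dkc1, at 135 and 338 FPKM, while Dkc1 itself was at 134 and 30.8 FPKM. Dkc1 was called lower in both experiments.

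Translation factors and other mRNAs with a known TOP tract had a smaller median difference than the ribosomal protein genes after overexpression, and were split in direction. Of 15 such genes, 0 were called in sorted cells (median -0.16), against 13.8% of all genes higher and 8.32% lower, with Eif3e at 207 and 139 FPKM, Hnrnpa1 at 104 and 72.1 FPKM and Eef1a1, the main elongation factor, at 484 and 645 FPKM. After overexpression 2 of 15 were called higher and 0 lower (median 0.19), against 6.60% and 10.1% of all genes. Eef1g was at 657 and 1449 FPKM and Eif3f at 68.2 and 146 FPKM, and Eef1d, at 648 and 1275 FPKM, was just inside the limit (0.98). Of the 15 genes 9 were above 0 and 6 below it, among the latter Eif4b (-0.83), Eef2 (-0.79) and Hnrnpa1 (-0.71). Eef1a1 was also below 0, at 10328 and 8293 FPKM (-0.32).

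Among 19 measured regulators of ribosomal protein synthesis in sorted cells, 0 were called higher and 4 lower, with a median of -0.17. Myc, an activator of ribosomal protein and ribosomal RNA genes, was at 8.47 and 1.62 FPKM, Eif4ebp1, which holds eIF4E when mTOR is inactive, at 1507 and 607 FPKM, and Trp53 at 89.3 and 39.2 FPKM. After overexpression 2 of 21 were called higher and 3 lower, with a median of -0.37. Myc was at 4.54 and 16.9 FPKM, Eif4e, the cap-binding factor, at 131 and 29.3 FPKM, and Gabpa at 28.3 and 8.95 FPKM. Mycn, the paralogue of Myc, ran opposite to Myc, at 12.8 and 22.2 FPKM in the sort (0.75) and at 41.3 and 27.6 FPKM after overexpression (-0.56). Over all genes, 13.8% were called higher and 8.32% lower in the sort, and 6.60% and 10.1% after overexpression.

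Mitochondrial ribosomal protein and oxidative phosphorylation genes also had positive medians after overexpression, and medians near 0 in the sort. Mitochondrial ribosomal protein genes had a median of 0.63, with 21 of 76 called higher and 0 lower, and oxidative phosphorylation genes one of 0.86, with 30 of 77 called higher and 1 lower, against 6.60% and 10.1% of all genes. In sorted cells the medians were -0.08 for 77 mitochondrial ribosomal protein genes, with 0 called higher and 1 lower, and 0.09 for 78 oxidative phosphorylation genes, with 1 higher and 5 lower, against 13.8% and 8.32% of all genes. In the sort 47 of 77 mitochondrial ribosomal protein genes were below 0, as were 32 of 78 oxidative phosphorylation genes, against 48.1% of all genes. All 874 genes of at least 100 FPKM that are no members had a median of 0.46 after overexpression, and the 950 such genes of the sort one of -0.01. The oxidative phosphorylation median of 0.86 and the 0.84 of the main ribosomal protein genes lay side by side on this scale.

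Transcript length moved with the difference. After overexpression, other genes of at least 100 FPKM in 5 groups by length had medians of 0.86 in the shortest group (up to 692 nt), then 0.64, 0.49, 0.21 and 0.14 in the longest. The main genes had lengths from 368 to 3706 nt, with a median of 704 nt. The longest was Rps20 and the next, Rpl22, was at 2048 nt, each a median over annotated protein-coding transcripts. In 3 groups from short to long, the main genes had medians of 1.001, 0.84 and 0.77. The Spearman rho between length and difference was -0.40 across 76 genes. The median of each of these groups, the longest of which began at 860 nt, lay above the medians of all groups of other genes past 692 nt. The shortest group of other genes, at 0.86, lay below the main group at 1.001 but above those at 0.84 and 0.77. In sorted cells the main genes had medians of -0.18, -0.21 and -0.25 from short to long, and the other abundant genes 0.17, 0.00, -0.05, -0.16 and -0.09. With the trend on transcript length over all genes removed, the overexpression median was 0.61 with 5 main genes past 2-fold, and with the trend on genomic span removed it was 0.43 with 7. The part of library preparation or RNA quality in these trends was not tested.

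**Figure D4:**
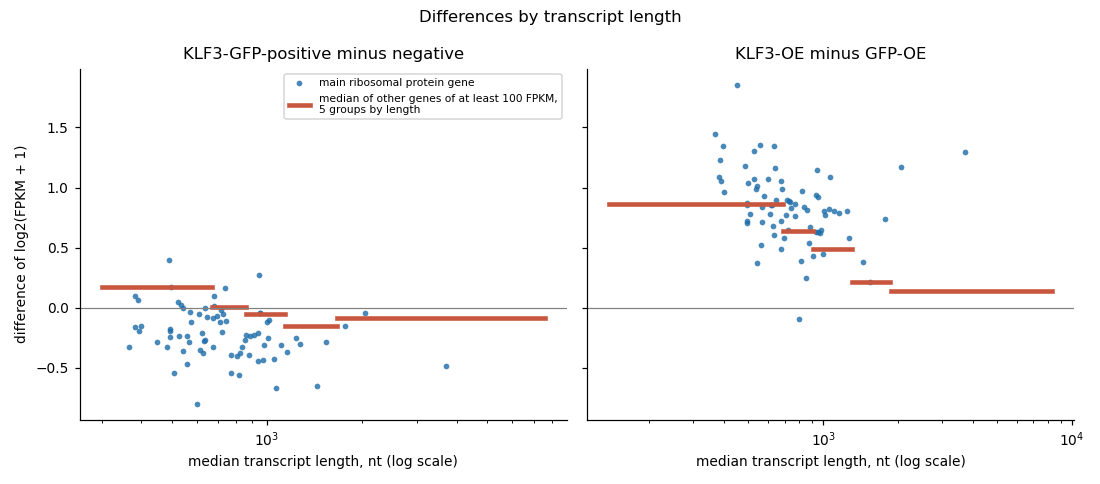
Difference of log2(FPKM + 1), KLF3 side minus control, against median transcript length in nt (log scale) for main ribosomal protein genes (points), with bars at the median of other genes of at least 100 FPKM in 5 length groups, for sorted cells (left) and overexpressing cells (right). On the right the bars step down from 0.86 to 0.14 with length and most points lie above them, and on the left most points lie below the bars.

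Markers of cell state moved in both experiments beside these values. Over all genes the shares called were 13.8% higher and 8.32% lower in the sort, and 6.60% and 10.1% after overexpression. Primitive endoderm markers were higher by more than 2-fold in 13 of 13 genes in both tables, with medians of 3.85 in the sort and 1.93 after overexpression. Their summed FPKM went from 58.6 to 1844 in the sort, with Dab2 at 0.780 and 233 FPKM, Col4a1 at 1.47 and 138 FPKM and Col4a2 at 0.480 and 59.4 FPKM, and from 249 to 982 after overexpression, with Col4a1 at 12.7 and 75.5 FPKM, Lama1 at 6.38 and 39.7 FPKM and Col4a2 at 8.32 and 49.5 FPKM. Pluripotency markers were called lower in 9 of 15 genes and higher in 1 in the sort (sum 22035 and 11554 FPKM), led by Tdgf1 (324 and 68.9 FPKM), Fgf4 (13.6 and 2.84 FPKM) and Sox2 (39.4 and 9.64 FPKM). After overexpression 4 of 15 were called lower and 0 higher (sum 6726 and 8795 FPKM), led by Klf5 (39.9 and 14.9 FPKM), Nanog (255 and 103 FPKM) and Esrrb (138 and 60.3 FPKM). Both sums were carried by Dppa5a, at 20569 and 10977 FPKM in the sort and at 3794 and 6334 FPKM after overexpression. The other 14 genes summed to 1466 and 576 FPKM in the sort and to 2932 and 2461 FPKM after overexpression. Pou5f1 was at 883 and 990 FPKM there (0.16) and at 115 and 59.4 FPKM in the sort (-0.94, just inside the limit), so this defining mESC marker was present in all 4 conditions. In the sort 13 of the 15 genes were below 0, and Klf5 (0.72) and Tbx3 (1.02, the gene called higher) above it. After overexpression 11 of the 15 were below 0, and Utf1 (0.95, just inside the limit), Dppa5a, Klf2 (0.28) and Pou5f1 above it.

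Of the trophoblast list, 2 of 5 measured genes were called higher and 1 lower in the sort (sum 37.8 and 394 FPKM), against 13.8% and 8.32% of all genes. After overexpression 3 of 7 were called higher and 0 lower (sum 98.2 and 549 FPKM), against 6.60% and 10.1% of all genes. Krt8 was at 18.3 and 206 FPKM and Krt18 at 12.7 and 183 FPKM in the sort, where Ascl2 was at 2.73 and 0.810 FPKM. After overexpression Krt8 was at 26.3 and 176 FPKM, Krt18 at 36.6 and 340 FPKM and Hand1 at 0.830 and 4.16 FPKM. On the KLF3 side, Krt8 and Krt18 made up most of both sums. Of the measured genes, 3 of 5 were above 0 in the sort and 6 of 7 after overexpression. Tfap2c was below 0 in both, at 2.40 and 0.770 FPKM (-0.94) and at 26.2 and 13.1 FPKM (-0.95). The defining gene Cdx2 was at 0.100 FPKM, the lowest value of the tables, in both controls, and at 0.570 and 0.600 FPKM on the KLF3 side. Of the fibroblast and feeder list, 1 gene was measured in the sort and 5 after overexpression, summing to 7.77 and 5.49 FPKM and to 175 and 85.4 FPKM over the listed genes, with Fn1 making up most of the latter at 163 and 62.1 FPKM, Acta2 at 7.02 and 14.9 FPKM and S100a4 at 1.06 and 2.98 FPKM. Fn1 was at 6.83 and 3.32 FPKM in the sort. Col1a1 was at 0.230 and 0.290 FPKM after overexpression, near the lowest value. The part of the change in cell state in the values of the ribosomal protein genes was not tested.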

How the data were processed

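RNA-seq was run on 8 samples (2 per condition), grouped by the GEO labels. The submitters' processing notes name mm10, STAR 2.6.0 and Cufflinks 2.2.1, while the study's methods give an earlier STAR version. The authors used STAR for alignment and Cufflinks for FPKM. Each deposited table covers 1 experiment and holds an FPKM column for each condition, averaged by the authors over both samples, with 2 decimals and a lowest value of 0.1. Counts were not used here, and depth is unknown.

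Members, gene lists and alternatives were chosen with earlier results of these data known. Differences were taken as log2(FPKM + 1) of the KLF3 side minus control within a table, for genes averaging 1 FPKM or more, and called past a 2-fold change (Python 3.11.15, pandas 2.3.3). A gene ID listed more than once was represented by its entry of highest mean. Named were the 3 main genes of each subunit and table with the highest mean, the largest rise and the largest fall, every paralogue, every member past 2-fold, and the 3 genes of largest change in each list. Among these, 1 gene is not reported here. The genes Mycn, Dppa5a, Pou5f1, Cdx2, Col1a1, Tfap2c, Utf1, Klf2 and Tbx3 were chosen after their values were seen. So were Klf5 in the sort and Eef1a1, Eif4b, Eef2 and Hnrnpa1 after overexpression. The same holds for the values of Rps14, Rps29, Rplp0, Rplp1 and Rplp2 given outside that rule. Trends were removed with lowess (fraction 0.3, statsmodels 0.14.6), a step checked on simulated data. Coding sequences came from GENCODE M21 (blastn 2.17.0) and start sites from RefSeq GRCm38.p6. Transcript length is the median over protein-coding transcripts. Alternative pseudocounts, minimum levels, scalings, trends and sums were tried.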

Additional observations from a re-analysis of the deposited data

How the results depend on the processing

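Without values per sample, no error can be given for any difference, and leaving out each sample could not be run. No paired analysis was possible because each table holds 1 average per condition. An alternative was counted as moving a value past 0.1 on the log2 scale, 1 percentage point, or 1.5 times for a count. Of 110 alternative values of the main comparisons, 90 stayed within these limits and 20 did not. In sorted cells, the median and counts of the main genes stayed within them under every alternative run, as did the difference between the subunit medians, which ran from 0.06 (quantile normalization) to 0.14 (span trend removed) around 0.12. After overexpression that difference was 0.02 and ran from -0.02 to 0.02. Leaving out members with transcripts under 400 nt gave shares of 26.5% and 22.2% there and 27.6% and 37.0% after overexpression. Weighting by transcript length gave 21.2% and 17.6%, and 15.9% and 24.6%. Without mitochondrially encoded genes the GFP-OE share was 30.1%. After overexpression the main genes' median and number past 2-fold were 1.05 and 45 with median-ratio scaling, 0.16 and 1 with quantile normalization, 0.43 and 7 with the span trend removed, -0.0025 and 0 with the level trend removed (37 above 0), and 0.61 and 5 with the transcript-length trend removed. The last of these and the weighting by transcript length were chosen after seeing the data. The cause of these shifts was not tested. Of 370 alternative values of single paralogues and of all genes, 107 moved past the limits, among them calls over all genes after overexpression, from 588 to 1912 lower by more than 2-fold, and in sorted cells 840 higher and 417 lower at a mean of at least 5 FPKM.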

Other observations

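Other genes with a coding sequence at least 90% identical to a main ribosomal protein gene over at least 80% of its length numbered 9 in either table, most of them predicted genes. Gm2000, 99.7% identical to Rpl35, was at 9.46 and 7.98 FPKM in the sort and at 158 and 363 FPKM after overexpression (1.20). Gm10073, 98.5% identical to Rplp1, was at 1.12 and 1.77 FPKM in the sort and at 21.7 and 47.7 FPKM after overexpression (1.10). Gm10260, 99.1% identical to Rps18, was at 2.81 and 1.14 FPKM in the sort (-0.83) and at 8.29 and 11.7 FPKM after overexpression (0.46). Gm15013, 96.6% identical to Rps4x, was at 3.94 and 3.77 FPKM after overexpression (-0.05), and Gm3550, 97.9% identical to Rpl29, at 5.07 and 2.67 FPKM in the sort (-0.73). The differences of the main genes were 1.15 (Rpl35), 1.04 (Rplp1), 0.37 (Rps18) and 0.62 (Rps4x) after overexpression, and 0.00 (Rps18) and -0.07 (Rpl29) in the sort. Reads shared with the main gene cannot be told apart from reads of the copy. The 8 of these genes listed after overexpression took 0.0317% of the summed FPKM in GFP-OE and 0.0517% in KLF3-OE cells, less than a percentage point.

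The 5 most abundant main genes of each column took 25.7% and 28.2% of the main genes' summed FPKM in KLF3-GFP-negative and KLF3-GFP-positive cells, and 14.8% and 16.3% in GFP-OE and KLF3-OE cells. The main genes on the X chromosome, 4 in number, had medians of -0.26 in the sort and 0.71 after overexpression, beside -0.23 and 0.84 for all main genes.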
